A study of Homo sapiens with 8 samples.

Results

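RNA of JVM13 cells expressing the T286A form of cyclin D1 (3 arrays) was compared with RNA of JVM13 cells expressing wild-type cyclin D1 (3 arrays), which is 6 of the 8 samples of the series. The 2 empty-vector samples were kept out of the fit, and their values are given beside single genes for orientation. JVM13 is an established line grown from a human B-cell prolymphocytic leukaemia. Each cell model carried an inducible vector holding the wild-type cyclin, the T286A cyclin or no insert, and every sample, the controls included, received 0.1 µg/mL doxycycline as inducer. The labels name no clone, no number of independently made populations per construct and no induction time, and do not say that replicates came from separate cultures, so the p-values rest on the scatter among these samples, which may be only technical. All 18231 genes with a probe set annotated to that gene alone were compared, each through its brightest such probe set over the 8 arrays.

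Cyclin D1 binds the kinases CDK4 and CDK6, which phosphorylate the retinoblastoma protein and so free E2F transcription factors to drive entry into DNA replication. Phosphorylation of the threonine that T286A replaces with alanine leads to export of the cyclin from the nucleus and to its breakdown by ubiquitin ligases. The mutant therefore lacks a signal for export and turnover and persists as a stable protein. Cyclin D1 is best known in B cells from mantle cell lymphoma, where a translocation places its gene under immunoglobulin control, and truncated or stabilised forms of it occur there.

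The cyclin D1 transcript was high with both constructs. On the log2 scale of the deposited values, CCND1 read 10.98, 11.13 and 11.07 in the wild-type arrays and 11.25, 10.86 and 10.95 in the T286A arrays, against 5.25 and 4.98 with empty vector. The constructs overlapped, and both lay far above the vector controls. The difference, T286A minus wild type, was -0.04 ± 0.11 (SE, n = 3 and 3; 95% interval -0.30 to 0.21), with an adjusted p of 0.901 in limma. Leaving out T286A replicate 2 turned it to 0.037. These values come from the brightest of 4 CCND1 probe sets. The other 3 had mean levels of 4.02 to 4.47 over the 6 arrays and differences of -0.16 to -0.04. The array measures RNA, so the amount of cyclin D1 protein in either model is not analysed here. Of the B-cell markers, 8 of 8 measured (CD79A, PAX5, CD22 and others) lay at or above the median level of all genes, with mean levels of 10.1 to 10.18 in the wild-type arrays and 10.12 to 10.16 in the T286A arrays. Of the markers of T cells, NK cells, myeloid cells, erythroid cells and platelets, epithelial cells and endothelial cells, 0 reached that median, and of 6 fibroblast markers 1 did. None of the markers of any cell type was called, and the mean level of each of those other panels stayed between 4.38 and 5.1 in every array.

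The arrays of one construct were not much closer to each other than to those of the other construct. The root mean square log2 difference over all genes was 0.213 to 0.267 for the 9 pairs between constructs, 0.186 to 0.204 for the 3 pairs within T286A and 0.184 to 0.245 for the 3 pairs within wild type. Wild-type replicate 2 stood apart from the other arrays. Its median probe-set level was 5.472 where the other 7 arrays read 5.572 to 5.618, and its correlation with the other wild-type arrays was 0.9943 and 0.9945, where those correlated at 0.9968 with each other.

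A small set of genes separated the constructs. In limma, at a Benjamini-Hochberg adjusted p under 0.05, 128 of 18231 genes were called, which is 0.702% of the genes tested. In the T286A arrays 81 genes (0.444%) were higher and 47 genes (0.258%) were lower than in the wild-type arrays. The 3 T286A and 3 wild-type values did not overlap for any of the 128 called genes, and they also did not overlap for 19.8% of all genes. Without adjustment, 2232 genes had a p under 0.05, 1177 of them higher and 1055 lower. The called differences were mostly moderate: their median size was 0.702 on the log2 scale and the smallest was 0.397, against a median of 0.091 for all genes. A change of 2-fold or more was reached by 24 called genes, 15 higher and 9 lower. The plot of level against difference shows the called genes on both sides of a narrow band, with 3 far below it.

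**Figure D1:**
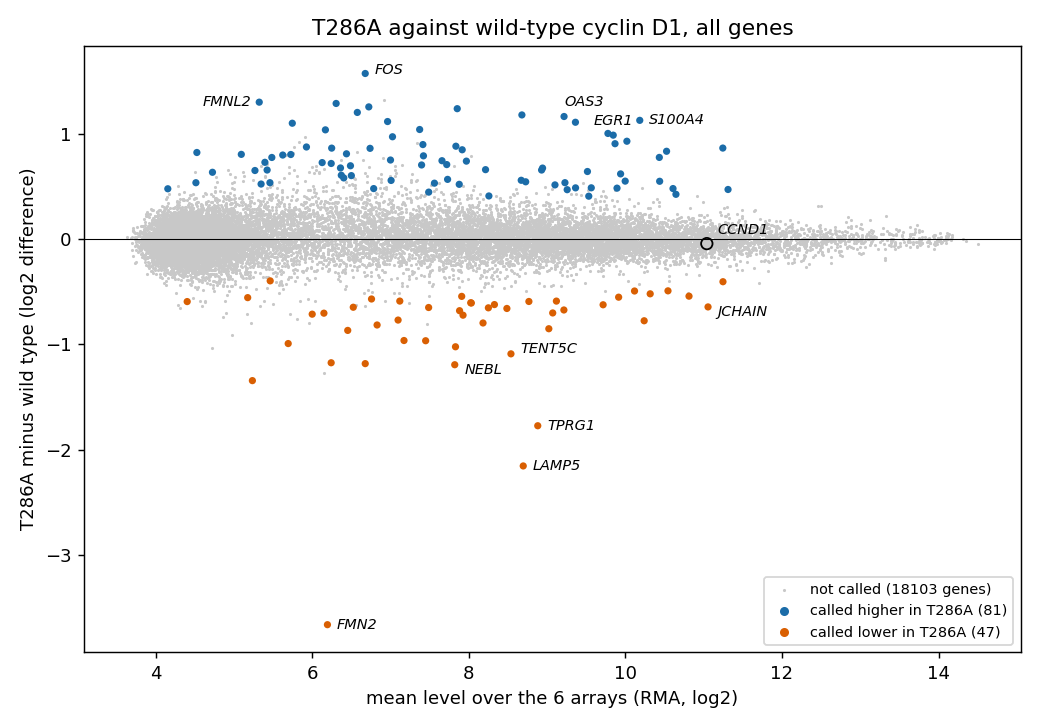
Each point is 1 gene, placed by its mean log2 level over the 6 arrays (horizontal) and by the log2 difference T286A minus wild type (vertical). The 81 genes called higher and the 47 called lower in limma are coloured, FMN2 lies lowest at -3.66, and CCND1 (open circle) lies at -0.04.

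Which direction held the majority of calls depended on the centring of the arrays. Of the main calls 63.3% were higher in T286A. With each array centred on the median of 21 housekeeping genes the split was 45 higher and 71 lower (38.8% higher), and centring on the all-gene median gave 56 higher and 61 lower (47.9% higher). The median difference of all genes then moved to -0.0899 and -0.0646. Each centring used the median level in an array, so it shifted every difference by the same amount. The housekeeping genes themselves had a median difference of 0.024 before centring on them and -0.067 after it. List medians given below as centred on housekeeping genes carry the same shift. The 128 genes kept their sign in both centrings, and 92 and 103 of them were still called. Every fit that left out 1 array made fewer calls: 37 with wild-type replicate 1 removed, 57 with wild-type replicate 2, 25 with wild-type replicate 3, 26 with T286A replicate 1, 33 with T286A replicate 2 and 17 with T286A replicate 3. Each of those fits kept between 17 and 48 of the 128 main calls. Of 48 called genes chosen by the naming rule given with the processing, 13 kept their call in all 6 of those fits: FMN2, LAMP5, TPRG1, NEBL, LGALS14, TENT5C, CBLN2, PFKFB4, PRL, OAS3, S100A4, ALDOC and CCL22. For the other called genes described below, such results are not given gene by gene.

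The 3 genes that differed most were higher with wild-type cyclin D1 than with T286A. FMN2 encodes a formin, a protein that nucleates unbranched actin filaments. It read 8.13, 8.14 and 7.81 in the wild-type arrays, 4.29, 4.35 and 4.45 in the T286A arrays, and 4.42 and 4.34 with empty vector. Only the wild-type arrays were high, and the T286A arrays lay at a level typical of dim probe sets, as did the vector controls. The difference was -3.66 ± 0.10 (SE, n = 3 and 3; adjusted p = 4.8e-05, limma). No fold is given, because a level this dim may be background. Of 3 other FMN2 probe sets, 2 were called in the same direction, and their differences ran from -2.63 to -0.11. The mean over its probe sets gave -1.97.

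LAMP5, a lysosome-associated membrane protein family member known from plasmacytoid dendritic cells and neurons, read 9.81, 9.77 and 9.74 with wild type, 7.74, 7.57 and 7.55 with T286A, and 7.95 and 7.96 with empty vector. The T286A values were the lowest of the 3 groups. The difference was -2.15 ± 0.074 (SE; adjusted p = 9.0e-05), and the other LAMP5 probe set gave -2.55. TPRG1, named for its regulation by p63, read 9.72, 9.82 and 9.77 with wild type, 8.02, 8.05 and 7.92 with T286A, and 9.16 and 9.12 with empty vector. Here the vector controls lay between the constructs. The difference was -1.77 ± 0.068 (SE; adjusted p = 0.000136), with -1.57 at its other probe set.

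The promoter of FMN2, the gene with the widest difference, is shown because a cyclin that acts through E2F factors was varied. It covers the 250 bases before the RefSeq transcription start (GRCh38.p14, chr1:240091633-240091882, plus strand), and capitals mark an E2F site (TTTCGCGC) that starts 149 bases before the start and GC boxes (GGGCGG) that start 107 and 94 bases before it. An E2F site was found in 2.44% of promoters of genes called lower and 3.84% of those of all measured genes with a promoter. A role of the FMN2 site was not tested.
FMN2: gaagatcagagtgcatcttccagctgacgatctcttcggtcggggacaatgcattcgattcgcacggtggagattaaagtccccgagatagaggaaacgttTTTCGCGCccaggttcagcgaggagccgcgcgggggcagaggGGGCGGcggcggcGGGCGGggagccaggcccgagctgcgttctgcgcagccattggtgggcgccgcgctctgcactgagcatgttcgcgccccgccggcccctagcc

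The genes beside these on the chromosome were set against them. In the RefSeq gene order, the measured genes on either side of FMN2 were CHRM3 (difference 0.17) and RGS7 (-0.15), which were not called, while the next one beyond RGS7, KMO, an enzyme of tryptophan breakdown, was called lower at -0.40 (adjusted p = 0.0455). LAMP5 is preceded by PLCB1, called higher at 1.04, and PLCB4 at -1.03, which missed the threshold (adjusted p = 0.0978), and is followed by PAK5 at -0.01 and ANKEF1 at -0.19. None of the 4 measured genes nearest to TPRG1 was called (0.13, 0.03, -0.05 and -0.24). Over the 30 named genes (15 in each direction, whose brighter group reached the median level of all genes), 3 of 120 neighbours were called, which is 2.5% against 0.702% of all genes. PLCB1 and LAMP5 are 2 of these 3, each counted beside the other, and KMO is the other one. Of the neighbours 16.7% had an unadjusted p under 0.05, against 12.2% of all genes. Over all measured genes, 1 pair of adjacent genes was called, JAK1 (-0.70), the kinase of many cytokine receptors, and AK4 (0.93), a mitochondrial adenylate kinase. They moved in opposite directions.

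**Figure D2:**
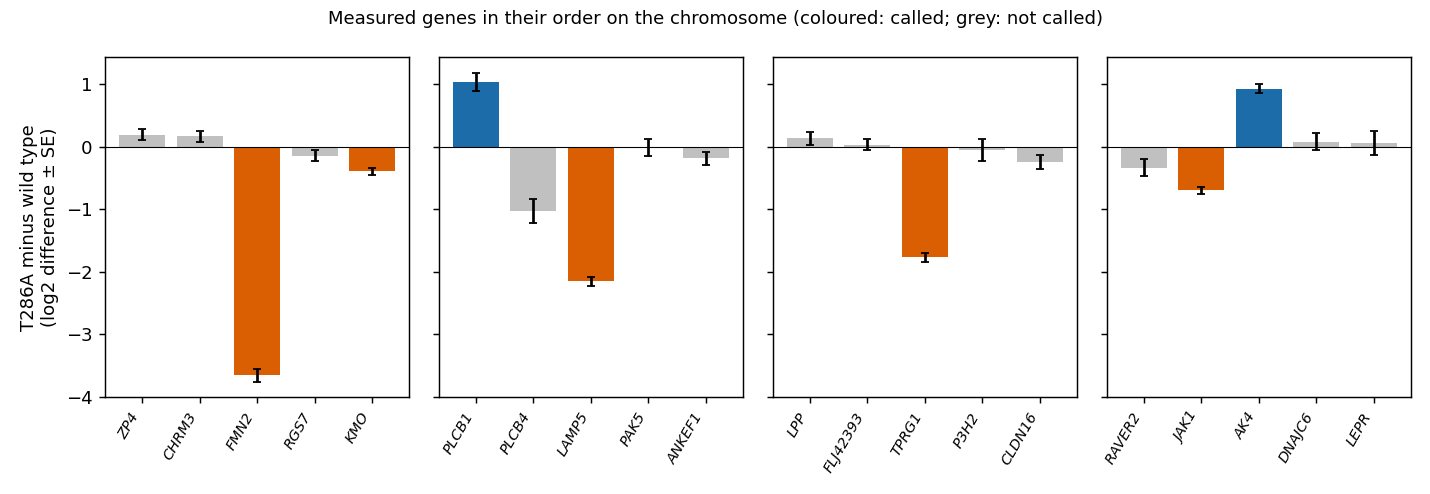
Bars give the log2 difference T286A minus wild type with its SE (limma, n = 3 and 3) for FMN2, LAMP5, TPRG1 and AK4 and for the 2 measured genes on each side, in RefSeq gene order. Coloured bars are called genes, and beside FMN2 at -3.66 the adjacent genes lie at 0.17 and -0.15.

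Further genes were lower in T286A by smaller amounts. NEBL, the actin-binding protein nebulette, differed by -1.19 ± 0.10 (SE), with wild-type levels of 8.47, 8.41 and 8.37 and T286A levels of 7.03, 7.24 and 7.41. Its 4 other probe sets gave -0.43 to -0.13 and none was called. LGALS14, a galectin, read 7.25, 7.15 and 7.41 with wild type and 6.06, 6.05 and 6.15 with T286A, a difference of -1.18. The 2 groups of arrays were apart by more than their own spread in both genes, which were chosen among genes without overlap. SAMSN1 (-1.17), an adaptor that dampens B-cell activation, RGS2 (-1.02), which shuts off Gq-coupled signalling, ELAPOR2 (-0.97), and ELK3 (-0.96), an ETS factor at serum response elements, followed. SPATA18 (-0.87), a p53 target concerned with mitochondrial quality, CBLN2 (-0.85), a secreted cerebellin, DPY19L1 (-0.82) and the thiol methyltransferase TMT1A (-0.80) completed the 15 largest among genes whose brighter group reached the median level, together with TENT5C and CLGN, which are described with the plasma-cell genes. CLIC6, a chloride channel gene below that level, was called at -1.34. ELK3 lost its call without T286A replicate 1 or 3. SPATA18 lost it in 4 of the 6 fits with 1 array left out, and RGS2, ELAPOR2, TMT1A and DPY19L1 lost it in at least 5.

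**Figure D3:**
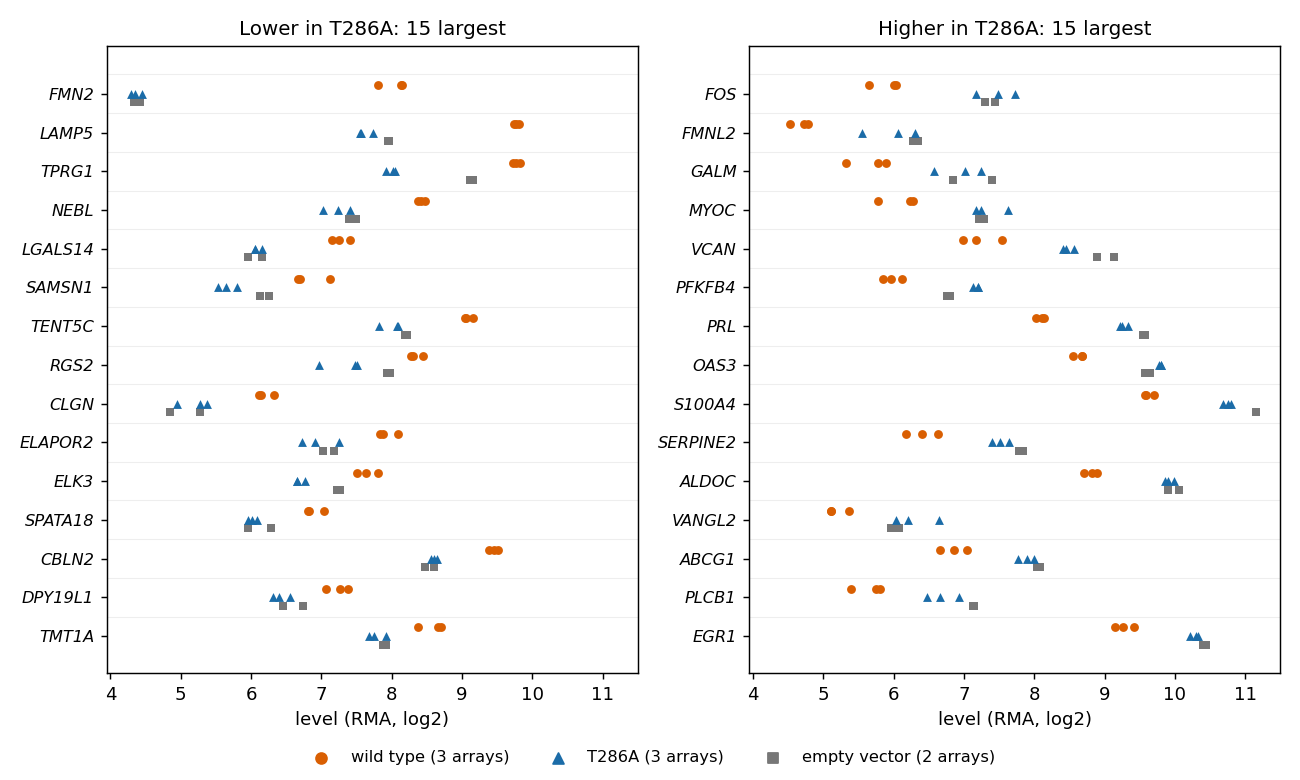
Points give the log2 level in every array for the 15 called genes with the largest negative (left) and positive (right) differences among those whose brighter group reached the median level, with wild type as circles, T286A as triangles and empty vector as squares. For FMN2 the wild-type arrays read 7.81 to 8.14 and the T286A arrays 4.29 to 4.45, while for FOS the order is turned (5.65 to 6.03 and 7.17 to 7.73).

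The largest positive difference called was that of FOS. The immediate early genes, which cells switch on within minutes of a stimulus without new protein synthesis, had 3 of 24 measured members called, all higher. All gene lists used here and below were written with earlier results of these data known. Counts of called members may thus partly reflect how the members were chosen. Each such count stands beside 0.444% of all genes called higher and 0.258% called lower. FOS, a subunit of the AP-1 factor, read 6.0, 6.03 and 5.65 with wild type, 7.73, 7.17 and 7.49 with T286A, and 7.44 and 7.30 with empty vector. Its difference of 1.57 ± 0.16 (SE; adjusted p = 0.0130), 2.97-fold, came with groups that lay far apart. EGR1, a zinc-finger factor, read 9.15, 9.26 and 9.42 with wild type and 10.21, 10.30 and 10.33 with T286A, with 10.40 and 10.44 in the vector controls. As in every called gene, the groups did not overlap in EGR1 either. It differed by 1.00 ± 0.086 (SE; adjusted p = 0.0069), and 2 of its 5 other probe sets were called the same way. JUN, the partner of FOS, read 6.51, 6.53 and 6.58 with wild type against 7.56, 7.32 and 7.66 with T286A (difference 0.97, adjusted p = 0.0104), although its other probe sets gave only 0.13 to 0.37. The median difference of the 24 genes was 0.146 and 19 of them were above 0, where all genes had a median of 0.0 and 50% above 0. Centred on housekeeping genes the median was 0.056. MYC (0.07), FOSB (0.02) and EGR3 (0.07) were not called. Without 1 array the list kept between 0 and 3 calls. EGR1 lost its call without T286A replicate 3, FOS without wild-type replicate 1 or 3 or T286A replicate 3, and JUN without any but wild-type replicate 2 or T286A replicate 2.

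The promoter of EGR1 is shown because such genes are read out through serum response factor, which binds the CArG box. The 250 bases before its start (GRCh38.p14, chr5:138465229-138465478, plus strand) hold CArG boxes, in capitals, that begin 105 and 83 bases before the start. In windows from 250 bases before to 50 after the start, on both strands, a CArG box was found in 2.99% of 67 promoters of genes called higher, 2.44% of 41 of genes called lower and 1.26% of the 14491 measured genes with a promoter. The AP-1 site (TGACTCA) was found in 7.46%, 2.44% and 3.67%. With 5 and 1 promoters behind the AP-1 shares, these are descriptions only.
EGR1: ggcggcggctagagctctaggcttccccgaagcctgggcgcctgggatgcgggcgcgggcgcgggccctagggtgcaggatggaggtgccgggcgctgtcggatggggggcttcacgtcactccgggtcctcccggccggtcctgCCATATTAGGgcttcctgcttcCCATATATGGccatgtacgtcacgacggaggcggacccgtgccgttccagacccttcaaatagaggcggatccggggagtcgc

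Genes that restrain or relay such signals were mixed. Of 20 MAP kinase feedback genes, DUSP2, a nuclear phosphatase acting on MAP kinases, was called higher (9.54, 9.68 and 9.67 against 10.15, 10.33 and 10.27; difference 0.62 ± 0.077 SE) and ELK3 was called lower. The vector controls read 10.64 and 10.57 for DUSP2, above both constructs. DUSP2 lost its call in all 6 fits with 1 array left out. Of 25 genes of G-protein signalling, 2 were called higher and 1 lower. PLCB1, a phospholipase C activated by Gq, was higher by 1.04, but its other probe sets gave -0.05 and -0.04. RGS16 was higher by 0.47 and RGS2 lower, as given above, so RGS family members were called in both directions. PLCB1 and RGS16 kept no call when any 1 array was left out.

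Interferon-responsive genes were called in 1 direction. Of 30 measured members, 3 were called higher and 0 lower, with a median difference of 0.109 (0.019 centred on housekeeping genes) and 19 above 0. At an unadjusted p under 0.05 there were 15 higher and 1 lower, where 1177 of all 18231 genes were higher and 1055 lower. Members of this list can move together within an array, so these are not counts of independent results. Over all genes 0.444% were called higher and 0.258% lower. OAS3, a sensor of double-stranded RNA, read 8.68, 8.55 and 8.68 with wild type, 9.81, 9.77 and 9.81 with T286A, and 9.58 and 9.65 with empty vector. It differed by 1.16 ± 0.067 (SE; adjusted p = 0.00139), 2.24-fold, though its other probe sets ranged from 0.07 to 1.16. OASL, a relative without synthetase activity, was higher by 0.73 (5.76, 5.64 and 5.89 against 6.69, 6.44 and 6.34). IFIT3, a member of the family that binds foreign RNA, was higher by 0.56 (8.45, 8.38 and 8.35 against 8.98, 8.99 and 8.88). The constructs did not overlap in these 3 genes, as was so for every called gene and for 19.8% of all genes. Classical members such as MX1 (-0.01), IRF7 (0.02) and BST2 (0.05) differed little. In every fit with 1 array left out OAS3 alone kept its call in the list. Outside the list, and chosen after their values were seen, DDX60 (0.88) and EPSTI1 (0.51), both known as interferon-induced, were called higher, and the upstream kinase JAK1 was called lower.

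The promoters of OAS3 and IFIT3 are shown for their interferon-stimulated response elements, in capitals, which begin 143 and 12 bases before the start of OAS3 (GRCh38.p14, chr12:112938224-112938473, plus strand) and 156 and 122 bases before that of IFIT3 (chr10:89327747-89327996, plus strand). The element, searched by its consensus on both strands, was found in 7.46% of promoters of genes called higher, 2.44% of those called lower and 3.04% of those of all measured genes with a promoter. The NF-kappa-B site was found in 8.96%, 19.5% and 12.4%, the E-box (CACGTG) in 8.96%, 7.32% and 8.81%, and the GC box in 58.2%, 46.3% and 59.8%. The E2F site (TTTCGCGC, TTTGGCGC or TTTCCCGC) was found in 4.48%, 2.44% and 3.84%, and the cAMP response element (TGACGTCA) in 1.49%, 0.0% and 2.63%. In OAS3 the later element overlaps an E2F site, which begins 16 bases before the start and itself overlaps a GC box.
OAS3: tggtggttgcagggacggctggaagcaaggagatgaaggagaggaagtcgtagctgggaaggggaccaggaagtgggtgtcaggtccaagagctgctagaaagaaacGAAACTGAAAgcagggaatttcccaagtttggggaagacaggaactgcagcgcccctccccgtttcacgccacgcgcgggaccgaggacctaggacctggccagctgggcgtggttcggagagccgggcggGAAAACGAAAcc
IFIT3: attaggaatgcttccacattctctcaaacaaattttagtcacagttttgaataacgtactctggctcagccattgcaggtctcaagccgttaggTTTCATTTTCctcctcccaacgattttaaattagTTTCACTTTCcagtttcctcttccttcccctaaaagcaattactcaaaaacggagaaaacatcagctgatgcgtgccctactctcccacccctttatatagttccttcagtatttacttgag

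Glycolysis and hypoxia genes had 5 of 32 measured members called, all higher in T286A, with a median difference of 0.119 (0.029 centred on housekeeping genes) and 28 above 0. This list, too, was written with earlier results of these data known, and over all genes 0.444% were called higher. PFKFB4, which sets the level of the sugar bisphosphate that activates phosphofructokinase, read 5.85, 6.12 and 5.96 with wild type, 7.20, 7.20 and 7.13 with T286A, and 6.76 and 6.80 with empty vector. Its difference was 1.2 ± 0.083 (SE; adjusted p = 0.0031). Its 3 other probe sets gave 0.38 to 0.59, none was called, and the mean over its probe sets gave 0.67. ALDOC, an aldolase, read 8.71, 8.82 and 8.90 with wild type and 9.99, 9.86 and 9.90 with T286A, a difference of 1.11, and all 4 of its other probe sets were called the same way. In both genes every T286A array exceeded every wild-type array by more than either group's range. GALM, the mutarotase that feeds galactose into metabolism, was higher by 1.29 but spread widely (5.32 to 5.89 against 6.58 to 7.24; adjusted p = 0.0471). BNIP3L (0.49) and BNIP3 (0.48), hypoxia-induced mitophagy receptors that the BCL2 family list also holds, were called as well. The core enzymes GAPDH (0.01), ALDOA (0.01), PGK1 (0.06) and LDHA (0.13) differed little and were not called. With any 1 array left out, 2 members of the list were called higher. Without wild-type replicate 2, ADM, a secreted vasodilator peptide with values of 5.86, 4.87 and 5.57 in the wild-type arrays, was called lower.

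Amino acid and stress-response genes driven by ATF4 had 2 of 22 members called, both higher, where 0.444% of all genes were called higher. Of the 22 differences 21 were above 0, with the highest median of the lists shown (0.206, or 0.116 centred on housekeeping genes). PHGDH, the entry enzyme of serine synthesis, read 6.97, 7.06 and 7.12 with wild type, 7.87, 7.52 and 7.85 with T286A, and 7.09 and 7.31 with empty vector. Its difference was 0.70 ± 0.11 (SE; adjusted p = 0.0448). DDIT4, an inhibitor of mTOR complex signalling, was higher by 0.42 (adjusted p = 0.0470). ATF4 itself differed by 0.05 and ASNS by 0.11, and neither was called. Both calls are close to the threshold: DDIT4 lost its call in all 6 fits with 1 array left out and PHGDH in 5 of them. CTH, an enzyme of cysteine synthesis that is outside the list and was chosen after its values were seen, was called higher at 0.72.

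Lists of small, one-sided differences without calls were found for lipid synthesis and cell division. Of 25 genes of cholesterol and fatty acid synthesis 24 were above 0, with a median of 0.157 (0.067 centred on housekeeping genes) and 0 calls. LSS, which closes the sterol rings, read 8.36, 8.29 and 8.36 with wild type and 8.74, 8.63 and 8.82 with T286A (difference 0.40, adjusted p = 0.0824). MVK, mevalonate kinase, differed by 0.42 (adjusted p = 0.124), while its other probe set gave 0.08. Of 33 G2/M and mitosis genes 32 were above 0, with a median of 0.138 (0.047 centred on housekeeping genes) and 0 calls. BUB1B, a spindle checkpoint kinase, read 10.14, 10.12 and 10.04 with wild type, 10.36, 10.30 and 10.32 with T286A, and 9.98 and 10.00 with empty vector (difference 0.23, adjusted p = 0.224). HMMR, a spindle protein, differed by 0.22 (adjusted p = 0.226). Values of these genes move together within an array, so the count above 0 is not a count of independent results. At an unadjusted p under 0.05, 12 mitosis genes and 11 lipid genes were higher and 0 lower. Over all 18231 genes, 1177 were higher and 1055 lower at that cutoff.

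The E2F and G1/S genes, which lie downstream of cyclin D1 through its kinases, showed 0 calls among 39 members, with a median of 0.096 and 33 above 0. E2F1, which is itself an E2F target, read 8.14, 8.09 and 8.16 with wild type, 8.33, 8.44 and 8.30 with T286A, and 7.65 and 7.66 with empty vector (difference 0.23, adjusted p = 0.260). CCNE2, a partner of CDK2, went the other way at -0.31 (9.33, 9.42 and 9.22 against 8.98, 9.0 and 9.06; adjusted p = 0.178). Their arrays did not overlap between constructs, as was so for 19.8% of all genes. Centred on housekeeping genes, the median of this list fell to 0.006. CDK4 (-0.08), CDK6 (-0.03) and CCND3 (0.19) and the other 14 partners, pocket proteins and inhibitors were not called, and neither were any of the 18 genes of cyclin D1 turnover and nuclear export, among them the export receptor XPO1 (0.16, adjusted p = 0.368). Homologous recombination and fork repair genes had a median of 0.124 over 16 members (0.034 centred on housekeeping genes) and 0 calls.

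**Figure D4:**
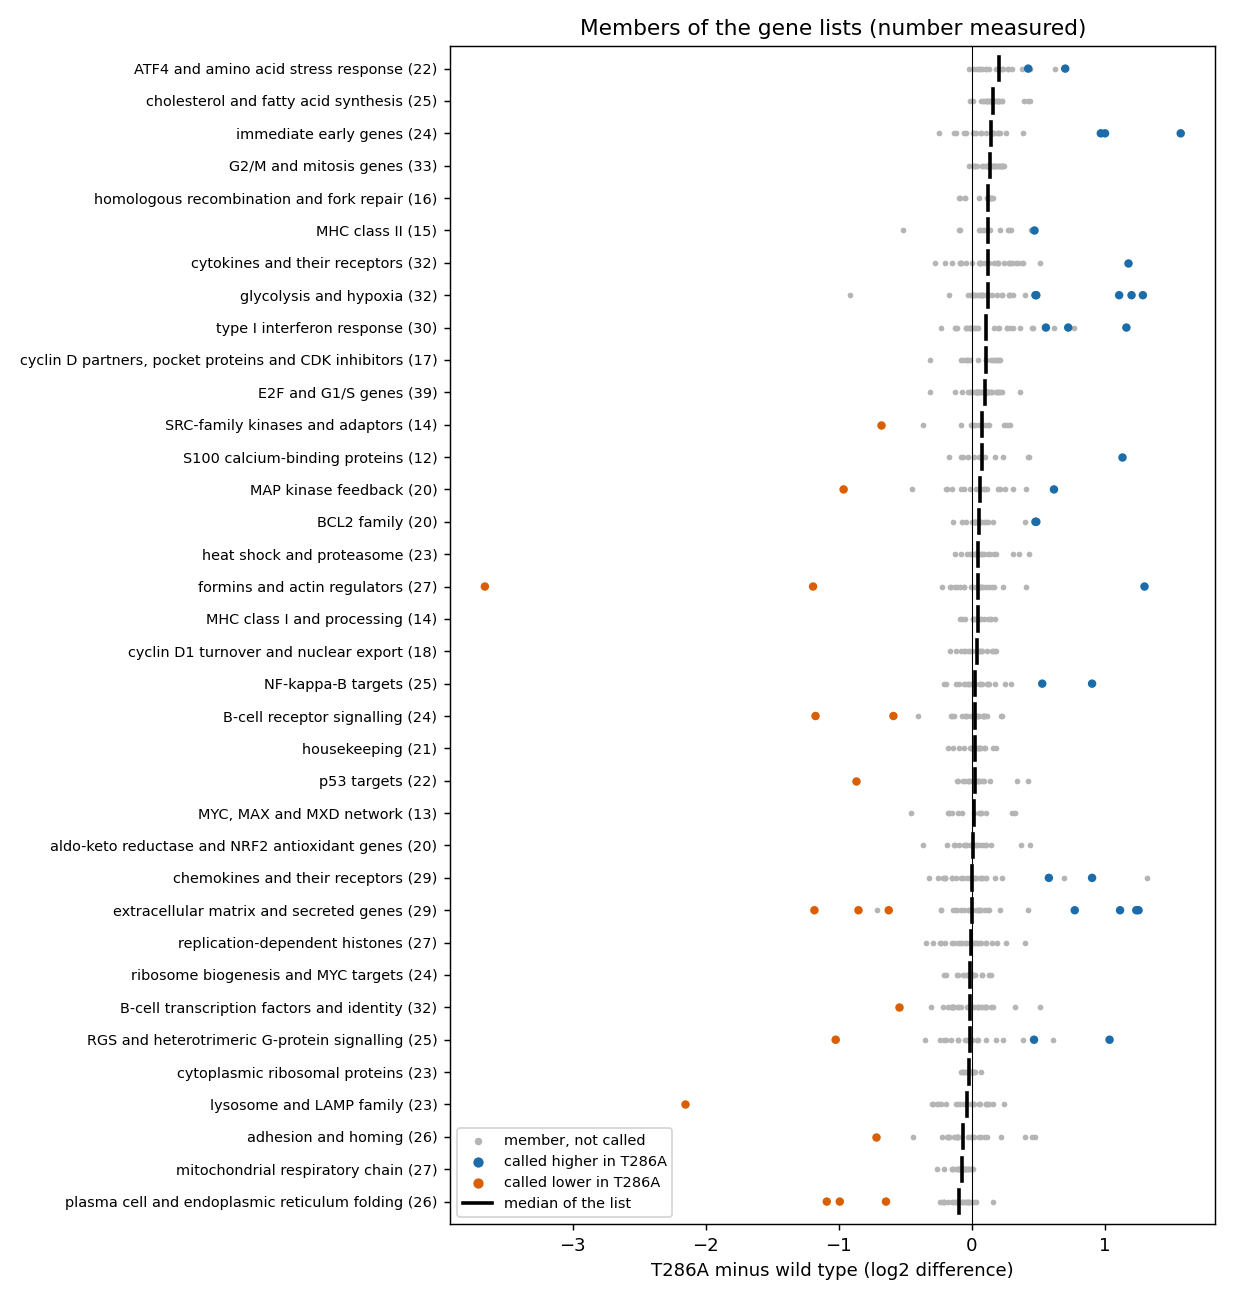
Each row is 1 gene list with its number of measured genes, each point is 1 member at its log2 difference T286A minus wild type, and the black bar is the list's median. Called members are coloured, and the medians run from -0.099 for the plasma cell and endoplasmic reticulum list to 0.206 for the ATF4 list.

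TENT5C, JCHAIN and CLGN were lower with T286A than with wild type among the plasma-cell and endoplasmic reticulum genes. Of 26 measured members 3 were called lower and 0 higher, where 0.258% of all genes were called lower and 0.444% higher. In the list 3 differences were above 0, and the median was -0.099, the lowest of the lists shown (-0.189 centred on housekeeping genes). TENT5C, a poly(A) polymerase that stabilises immunoglobulin messages, read 9.15, 9.04 and 9.06 with wild type, 8.09, 7.82 and 8.07 with T286A, and 8.19 and 8.22 with empty vector. Its difference was -1.09 ± 0.090 (SE; adjusted p = 0.00617). JCHAIN, which joins IgM and IgA into polymers, read 11.43, 11.34 and 11.36 with wild type, 10.75, 10.65 and 10.80 with T286A, and 11.14 and 11.19 with empty vector. It was lower by a difference of -0.64 ± 0.068 (SE; adjusted p = 0.0161), with the vector controls between the constructs. CLGN, an endoplasmic reticulum chaperone best known from sperm, differed by -0.99 ± 0.12 (SE; adjusted p = 0.0210). It read 6.14, 6.32 and 6.11 with wild type, 5.37, 5.27 and 4.95 with T286A, and 5.27 and 4.84 with empty vector. The regulators PRDM1 (-0.15), XBP1 (-0.21) and IRF4 (-0.03) and the chaperones HSPA5 (-0.04) and CALR (0.03) were not called. With 1 array left out between 1 and 2 members were called. JCHAIN kept its call only without wild-type replicate 2, and CLGN in none of those fits. The respiratory chain, with 27 measured subunits, had 2 above 0, a median of -0.075 (-0.165 centred on housekeeping genes) and 0 calls. Its lowest member was UQCRB, a complex III subunit (-0.26, adjusted p = 0.259).

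**Figure D5:**
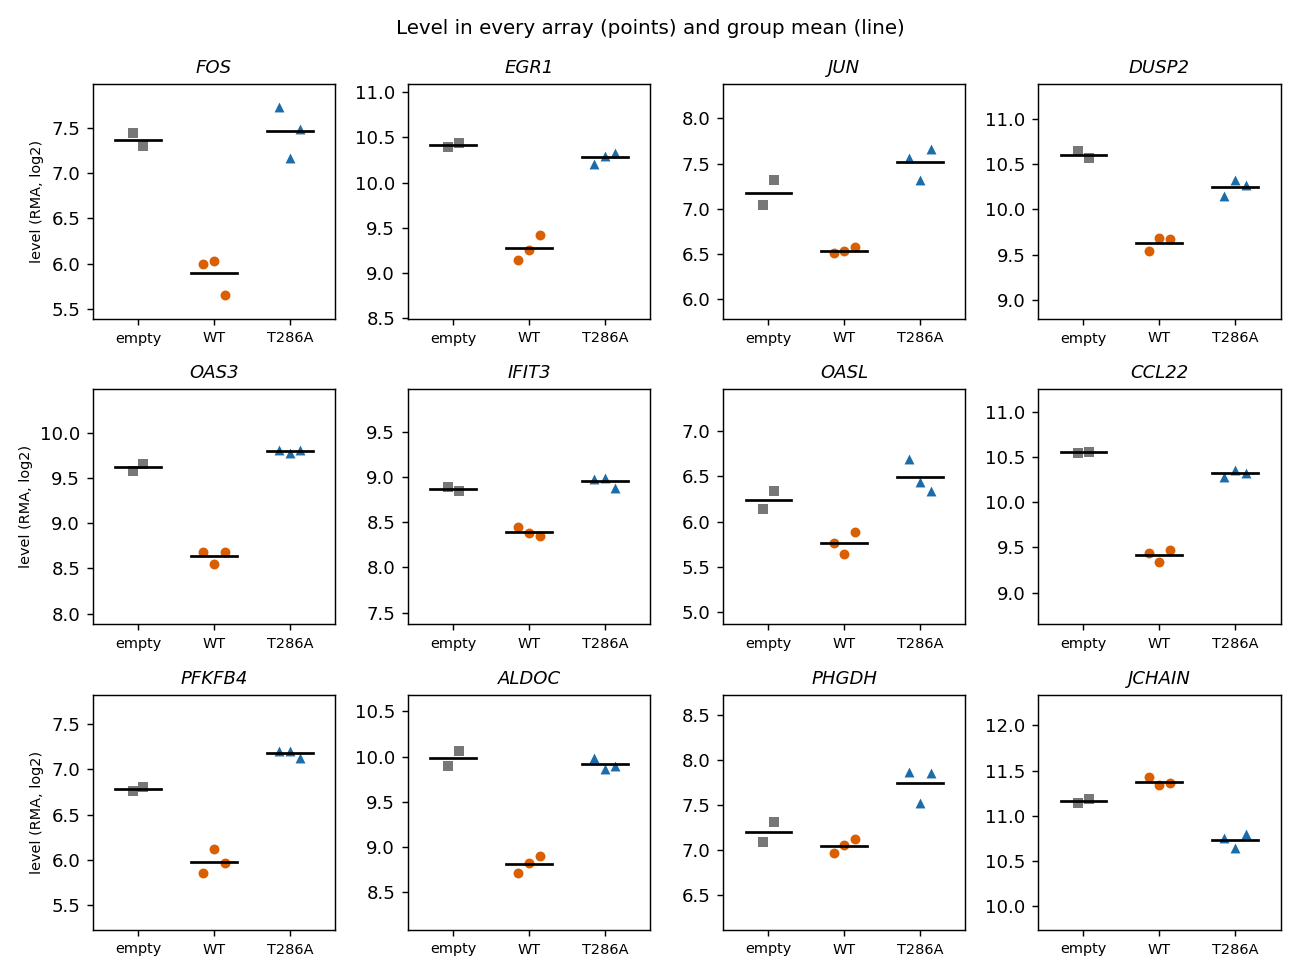
Points give the log2 level in each array and lines the group mean for 12 called genes, with empty vector (2 arrays), wild type (3) and T286A (3) side by side on axes of equal span. FOS reads 5.65 to 6.03 with wild type and 7.17 to 7.73 with T286A, and JCHAIN is the one shown that is lower in T286A (11.34 to 11.43 against 10.65 to 10.80).

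B-cell genes changed in few places. Of 24 B-cell receptor signalling genes, SAMSN1 and STK17B (-0.59), a kinase linked to lymphocyte apoptosis, were called lower, while the receptor subunits CD79A (-0.14) and CD79B (-0.03) and the kinases SYK (-0.16) and BTK (-0.04) were not called. Of 32 genes of B-cell identity, 1 was called, LEF1, a WNT-pathway factor expressed in chronic lymphocytic leukaemia, at -0.54 (8.15, 8.23 and 8.16 against 7.58, 7.64 and 7.70). LCK, a SRC-family kinase of T cells that leukaemic B cells can also express, read 8.06, 8.32 and 8.29 with wild type, 7.61, 7.46 and 7.56 with T286A, and 7.51 and 7.31 with empty vector. Its difference was -0.68 ± 0.089 (SE; adjusted p = 0.0282). The 8 measured T-cell markers lay at mean levels of 4.38 to 4.5 in these arrays, below the median of all genes, and 0 were called. Among MHC class II genes HLA-DRB1 was called higher at 0.47, with 12 of 15 above 0 and a median of 0.124 (0.034 centred on housekeeping genes). Probes of HLA-DRB1 can also bind related HLA-DRB genes, so its value is uncertain. Of 14 MHC class I and processing genes 0 were called. STK17B, LEF1 and HLA-DRB1 lost their calls in all 6 fits with 1 array left out, SAMSN1 in 4 and LCK in 5.

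Listed chemokines, cytokines and their receptors were higher where they were called. PRL, the hormone prolactin, which lymphoid cells can make, read 8.11, 8.02 and 8.14 with wild type, 9.22, 9.25 and 9.33 with T286A, and 9.55 and 9.57 with empty vector. It differed by 1.18 ± 0.067 (SE; adjusted p = 0.00139) and was the 1 called gene of 32 cytokines and receptors, whose median was 0.123 (0.033 centred on housekeeping genes). CCL22, a chemokine that attracts CCR4-bearing T cells, read 9.44, 9.34 and 9.47 with wild type, 10.28, 10.36 and 10.32 with T286A, and 10.54 and 10.56 with empty vector (difference 0.90 ± 0.066 SE, adjusted p = 0.00327). In both genes the T286A arrays lay between wild type and empty vector. CCR9, a gut-homing receptor, was higher by 0.58, and the vector controls were higher still at 7.63 and 7.72 against 6.63, 6.83 and 6.62 with T286A. CCL20 had a larger difference of 1.32 that missed the threshold (adjusted p = 0.119), with wild-type values of 6.78, 5.59 and 6.42 and T286A values of 7.54, 7.63 and 7.58. Wild-type replicate 2 was the lowest of these arrays, and with it left out CCL20 was called. Of 25 NF-kappa-B targets CCL22 and TNFAIP2 (0.53) were called, with a list median of 0.026 that turned to -0.064 centred on housekeeping genes, and NFKBIA (-0.09), TNFAIP3 (0.06) and RELB (-0.03) were not. CCR9 and TNFAIP2 lost their calls in all 6 fits with 1 array left out.

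Matrix, adhesion and cytoskeletal genes were called in both directions. Of 29 extracellular matrix and secreted genes 4 were called higher and 3 lower, with a median of -0.001. Over all genes 0.444% were called higher and 0.258% lower. MYOC (1.25), a secreted glycoprotein, VCAN (1.24), the proteoglycan versican, SERPINE2 (1.11), a protease inhibitor, and the metalloproteinase MMP7 (0.77) were higher, and LGALS14, CBLN2 and SPARC (-0.62), a collagen-binding protein, were lower. VCAN read 7.54, 6.99 and 7.17 with wild type, 8.41, 8.56 and 8.45 with T286A, and 8.90 and 9.14 with empty vector. Its 8 other probe sets ranged from -0.19 to 1.28, and 3 of them were called higher. CD9, a tetraspanin, was lower by a difference of -0.72, the 1 call of 26 adhesion and homing genes. Of 27 formins and actin regulators FMN2 and NEBL were lower and FMNL2, a formin of lamellipodia, was higher: 4.78, 4.52 and 4.72 with wild type, 5.55, 6.30 and 6.06 with T286A. The FMNL2 difference of 1.3 ± 0.18 (SE; adjusted p = 0.0355) was not repeated by its other probe set (0.15). S100A4, a calcium-binding protein linked to motility, read 9.70, 9.59 and 9.58 with wild type, 10.80, 10.68 and 10.76 with T286A, and 11.15 and 11.16 with empty vector. It differed by 1.13 ± 0.070 (SE; adjusted p = 0.00192), both other probe sets were called the same way, and it was the 1 call of 12 S100 genes. VANGL2 (1.10), a planar polarity protein whose other probe set gave -0.10, and ABCG1 (1.04), a cholesterol exporter, were also among the 15 largest of such brighter genes. FMNL2 kept its call in 1 of the 6 fits with 1 array left out, CD9 in 1, VCAN and SERPINE2 in 2, ABCG1 in 3, and MYOC and VANGL2 in none.

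Lists without a call in either direction numbered 16 of 37. Among them, besides those already named, were heat shock and proteasome genes, NRF2 antioxidant genes, the MYC and MAX network, ribosome biogenesis, cytoplasmic ribosomal proteins, replication-dependent histones and housekeeping genes. Members of these lists that missed the threshold were HSPA1B (0.43, adjusted p = 0.0510), a stress-induced chaperone with a near-identical copy in HSPA1A (0.35), and HMOX1 (-0.37, adjusted p = 0.111), the haem-degrading enzyme. MXD4, an antagonist of MYC, differed by -0.46 (adjusted p = 0.166). It read 8.15, 7.91 and 8.27 with wild type, 7.58, 7.60 and 7.77 with T286A, and 8.92 and 9.03 with empty vector. Cytoplasmic ribosomal proteins had a median of -0.021 and a range of -0.08 to 0.07. In all, the lists held 849 different measured genes, of which 44 were called, and 84 called genes lay outside them.

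Some called genes outside the lists, chosen after their values were seen, belong to recognisable functions. Whether each of these calls holds with 1 array left out is not given here. Tubulins TUBA1A and TUBB2A were both higher, by 0.86 (10.86, 10.82 and 10.76 against 11.78, 11.57 and 11.67) and 0.55, as was FSCN1 (0.53), which bundles actin. ENPP2, the autotaxin that makes lysophosphatidic acid, read 9.45, 9.30 and 9.30 with wild type, 10.29, 10.37 and 10.36 with T286A, and 10.25 and 10.35 with empty vector (difference 0.99, adjusted p = 0.00327). EFNA5, an ephrin ligand, was higher by 0.90, and EPHA3, an ephrin receptor, was lower by a difference of -0.67 (9.57, 9.55 and 9.53 against 8.90, 8.89 and 8.85). The signalling peptides EDN1 (0.86, adjusted p = 0.0453) and IL1A (0.81, adjusted p = 0.0371) were higher. So were the purine receptor P2RX5 (0.83, adjusted p = 0.00727) and LTB4R (0.70, adjusted p = 0.0348), a receptor for leukotriene B4. P2RX5 and LTB4R differed in where the vector controls lay: 10.93 and 10.88 beside 10.92, 10.94 and 10.97 in T286A for P2RX5, and 5.93 and 6.22 beside 6.14, 6.06 and 6.23 in wild type for LTB4R. CPT1A, which carries fatty acids into mitochondria, was lower by a difference of -0.70 (adjusted p = 0.0282). TSC22D3, a glucocorticoid-induced gene, was higher by 0.41, close to the threshold (adjusted p = 0.0455).

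Calls were spread unevenly over signal levels. Split by level into 4 classes of equal size, the genes gave 2, 19, 70 and 37 calls from dimmest to brightest, which is 0.0439%, 0.417%, 1.54% and 0.812% of each class. Of the 128 called genes 100 had more than 1 probe set, and 35 of these had a further called probe set that shared the direction, while 0 had one called in the opposite direction. The mean over probe sets was also set in place of the brightest one. Among the called genes of the naming rule, the differences then shrank by more than 1.5 times for JUN (0.46), FMNL2 (0.73), VCAN (0.78), SERPINE2 (0.74), VANGL2 (0.50), PLCB1 (0.31), NEBL (-0.46), ELK3 (-0.56), SPATA18 (-0.52), TMT1A (-0.49) and CD9 (-0.41), beside FMN2 and PFKFB4. Some genes that were not called shrank by as much, among them MVK (0.25) and HMOX1 (-0.15). At the threshold, DDIT4 and GALM were the last genes inside (adjusted p = 0.0470 and 0.0471) and SPINT2 and SCAI the first outside (0.0504 for each).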

How the data were processed

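RNA of 8 JVM13 samples was hybridised to a human expression array, and the T286A and wild-type samples (3 and 3) were compared. Per the submitters' processing notes, the deposited log2 expression values were produced by the authors with RMA (robust multi-array averaging) and R 3.5.0. RMA subtracts background and equalises probe intensities between arrays before probe sets are summarised, so differences are relative to other genes, and dim probe sets understate changes. The medians of the summarised values still differed between arrays. The values hold no detection call, and precision is limited by the small number of arrays. Of 48864 probe sets, 10 controls, 1325 with several genes and 2309 with none were left out; 45220 with 1 gene gave 18231 genes, each through its brightest probe set, by the mean of all 8 arrays. Probe-set genes are those of the platform annotation, of which 45144 had a gene identifier in the RefSeq table (GRCh38.p14). No intensity filter was used.

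Groups and replicate numbers came from the sample titles. The difference was tested two-sided with lmFit and eBayes of limma 3.58.1 under R 4.3.3 (4 residual and 3.2 prior degrees of freedom), with Benjamini-Hochberg adjustment over all genes at 0.05, and every adjusted p comes from it. The script was checked on simulated data. Alternatives covered the samples fitted, the probe set rule, dim genes, 3 rescalings, the variance model, array weights, a replicate block and leaving out each array.

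The comparison, the 37 gene lists (926 entries, 876 measured) and the rule for named genes were chosen with earlier results of these data known. That rule took CCND1, the 15 largest called differences in each direction among genes without overlap and with the brighter group at or above the median level, up to 3 called members of each list by size, and, from lists without a call, up to 2 members with the smallest p. Other genes were chosen after their values were seen. List medians and counts have no test, and 1 list is not reported here. Promoters were read from RefSeq windows (250 bases before to 50 after the start, 27305 genes), and 67 of 81 genes called higher and 41 of 47 called lower had one; a gene with several starts was represented by the first listed.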

Additional observations from a re-analysis of the deposited data

How the results depend on the processing

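The 128 calls, 81 higher and 47 lower, came to 223 (141 and 82) without dim genes, 426 (240 and 186) with a mean-dependent variance trend and 34 (23 and 11) with the replicate block. With housekeeping centring 45 were higher and 71 lower, and fitting all 8 arrays gave 71 lower. Without 1 array, 17 to 57 genes were called, 9 to 30 of them higher and 8 to 27 lower. The other alternatives stayed within 1.5 times of the main counts. The values gave no sign that the replicate numbers pair the samples. The deviations of same-numbered arrays correlated at 0.041, 0.119 and 0.003, and not every array correlated best with its own number. With so few arrays this does not settle whether the samples were prepared in pairs. The CCND1 difference ranged from -0.158 to 0.037 when 1 array was left out, with the positive value without T286A replicate 2; it was not called under any alternative run. RPS3, a ribosomal protein at 0.07, turned to -0.023 when centred on housekeeping genes. Over the other named genes, 1074 values kept direction and side of the threshold, 23 passed it newly and 241 no longer passed. Of the list medians, 481 values stayed within the spread between arrays and 148 moved beyond it, and of the counts of called list members without wild-type replicate 2 or with all 8 arrays, chosen after seeing the data, 29 stayed within 1.5 times and 13 did not. The causes of these changes were not tested. With fewer arrays fitted, fewer degrees of freedom remain.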
